A study of Mus musculus with 4 samples.

Results

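Mouse pluripotent cells pass through a naive, a formative and a primed state, and 9 genes known from the formative and primed states were followed here in embryonic stem cells before and after the onset of the alternative lengthening of telomeres (ALT). The genes were *Fgf5*, *Otx2*, *Pou3f1*, *Zic2*, *Zic5*, *Sox3*, *Foxd3*, *Grhl2* and *Sox11*, chosen by name from the 53379 genes in the files, and all 9 were among the 19148 genes with enough counts for a test. The cells were DKO741, a line without the telomerase RNA gene *Terc* that was made from E14 mouse embryonic stem cells. Its alleles were replaced in turn with the targeting construct TR-10, and the neo cassette of the first replacement, which lay between loxP sites, was excised with Cre. Bulk RNA was sequenced in 2 libraries of pre-ALT cells at population doubling 100 (PD100) and in 2 libraries of post-ALT cells at population doubling 800 (PD800). Both groups carry the same *Terc* deletion and no other treatment is labelled, so the comparison asks what differed between an early and a late point in the life of 1 line.

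The line was kept on mouse embryonic fibroblast feeders, while feeder-free cells were used for extraction. Culture time and ALT cannot be told apart, because PD100 and PD800 differ in both. The sample titles give population doublings and another label gives passages, and the labels name total RNA where the study's text speaks of mRNA. The study calls the replicates biological duplicates, but nothing says that they came from separate cultures, so p-values measure only the spread between these libraries. The libraries held between 32454121 and 38492149 expected counts, an expected count being RSEM's estimate of the read pairs that came from a gene. Levels at or under 3 counts were taken as undetected, a floor of 0.0743 to 0.0934 CPM (counts scaled to library size) that covers counting error alone. A single expected count fell on the deleted gene *Terc*, in PD100 replicate 1, and the other 3 libraries had 0. Mitochondrial genes and small RNAs took 22.0% to 23.4% of counts at PD100 and 27.7% to 28.3% at PD800, and their part in the results was not tested.

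The naive state is that of the epiblast before implantation, and it is held by factors such as Nanog, Esrrb and Klf4. On leaving it, cells pass through the formative state, in which they become able to answer signals for germ layers and germ cells, and then reach the primed state of the epiblast after implantation. *Fgf5*, which encodes a secreted growth factor, is a classic marker of that exit, and Otx2 and Pou3f1 (also called Oct6) are transcription factors that drive it. Foxd3, Grhl2, Zic2 and Zic5, and the Sox proteins Sox3 and Sox11 are further transcription factors found at enhancers that open, or in lineages that form, as the naive state ends.

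The 9 genes did not move as a group. In PD800 cells 5 of them were called lower, namely *Grhl2*, *Pou3f1*, *Fgf5*, *Otx2* and *Sox11*, and 2 were called higher, *Zic2* and *Zic5*. A gene was called when edgeR's quasi-likelihood test gave an adjusted p under 0.01 with a fold change over 2, and by that rule 8.81% of all tested genes were called lower and 6.28% called higher. *Foxd3* passed the adjusted p in the higher direction, as 13.1% of all tested genes did, but at under 2-fold, and *Sox3* did not pass. The median log2 fold change of the 9 genes was -1.06, against 0.01 over all tested genes. In CPM the PD100 and PD800 libraries did not overlap for any of the 9 genes, which was also true of 73.8% of all tested genes. The summed level of the 9 genes, in TPM, which is scaled for gene length, was 46.8 and 39.9 at PD100 and 22.7 and 21.8 at PD800, in replicates 1 and 2 of each. In bulk RNA, fewer cells that express a gene and less RNA of it per cell cannot be told apart.

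**Figure D1:**
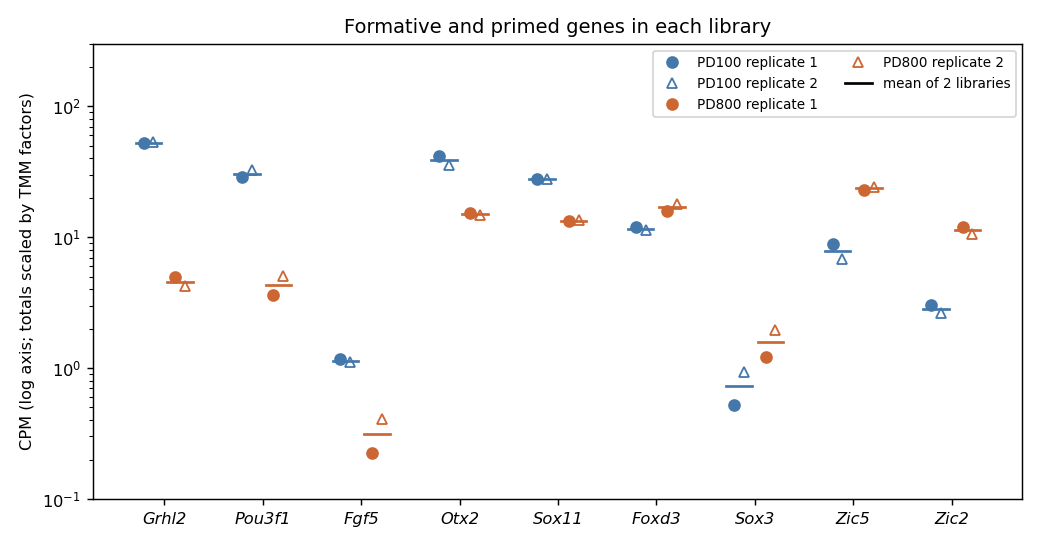
Level of each of the 9 genes in each library, in CPM on a log axis, ordered from the largest fall to the largest rise, with PD100 in blue, PD800 in orange, circles for replicate 1, triangles for replicate 2 and a line at the mean of 2 libraries. *Grhl2* was at 52.3 and 53.4 CPM at PD100 and at 4.92 and 4.23 CPM at PD800, and within no gene do the blue and orange points overlap.

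*Fgf5* (ENSMUSG00000029337.2) encodes fibroblast growth factor 5, a secreted ligand made by the epiblast around implantation. It lies on the plus strand of chromosome 5, from 98254184 to 98277030 in GRCm38, the assembly also called mm10. Expected counts were 47 and 37 in the PD100 replicates 1 and 2, and 8 and 13 in the PD800 replicates 1 and 2. As CPM these were 1.16 and 1.11 against 0.223 and 0.405, so both PD800 libraries were below both PD100 libraries, and all were above the floor. The mean was 1.14 ± 0.0394 CPM (SD, n = 2) at PD100 and 0.314 ± 0.129 CPM (SD, n = 2) at PD800. *Fgf5* thus fell 3.64-fold, with a log2 fold change of -1.86 (SE 0.35, 95% interval -2.72 to -1.01, edgeR adjusted p = 0.00690). The call rested on PD800 replicate 1: without that library the log2 fold change was -1.48 and the edgeR adjusted p 0.0393, with the lone PD800 library taken to vary as the PD100 libraries did. DESeq2 gave -1.88 with an adjusted p of 0.0129, also not past the threshold.

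The annotated *Fgf5* transcripts are 2501 and 600 bases long. The mean transcript length that RSEM assigned to the gene was 1892.04 and 1630.26 bases in the PD100 libraries and 2501 in both PD800 libraries, where all counts went to the longer transcript. On the TPM scale, which divides by that length, *Fgf5* was at 0.52 and 0.53 at PD100 and at 0.06 and 0.11 at PD800, a log2 ratio of -2.63.

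The 250 bases before the RefSeq start of *Fgf5* are shown because it is the ligand of the group and fell. They lie at chr5:98253934-98254183 on the plus strand of GRCm38.p6, are written 5′ to 3′ from RefSeq, and carry in capitals the only match to a searched motif, the Sox motif ACAAAG. The window had a GC content of 70.8% and 24 CpG dinucleotides, against medians of 52.4% and 6 over the 32851 windows in the table.
Fgf5: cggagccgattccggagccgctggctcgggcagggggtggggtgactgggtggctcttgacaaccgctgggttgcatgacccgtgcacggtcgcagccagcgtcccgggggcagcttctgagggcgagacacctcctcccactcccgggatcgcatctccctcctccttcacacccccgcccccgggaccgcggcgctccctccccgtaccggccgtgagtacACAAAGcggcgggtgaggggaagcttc

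FGF ligands act through receptor tyrosine kinases and the ERK pathway, whose feedback inhibitors are induced by the signal itself. Of 14 genes for FGF receptors and ERK feedback, all tested, 3 were called lower and none higher. *Dusp4*, which encodes a phosphatase of ERK, was at 19.5 and 20.5 TPM at PD100 and at 1.67 and 1.87 TPM at PD800, a log2 fold change of -3.26 in counts (edgeR adjusted p = 4.91e-05). The receptor genes *Fgfr4* (-2.78) and *Fgfr3* (-2.03) were the other 2 called, while the receptors with the highest levels here, *Fgfr1* (-0.32, edgeR adjusted p = 0.0257) and *Fgfr2* (-0.18, adjusted p = 0.126), did not pass. *Etv4* and *Il17rd* passed in the lower direction at under 2-fold (-0.93 and -0.45), and *Dusp6*, another ERK phosphatase, passed in the higher direction (0.54, edgeR adjusted p = 0.00186). *Etv5*, the gene of this list with the highest TPM, had a log2 fold change of 0.23 and did not pass (edgeR adjusted p = 0.189). The list's median was -0.25 in log2 fold change. Without PD100 replicate 2, *Etv4* was also called, at -1.09.

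*Otx2* (ENSMUSG00000021848.16) encodes a homeodomain transcription factor that directs enhancer use on entry into the formative state and later patterns the forebrain. It lies on the minus strand of chromosome 14, from 48657677 to 48673819. Expected counts were 1683 and 1190 at PD100 and 553 and 479 at PD800, and CPM were 41.7 and 35.7 against 15.4 and 14.9. The PD100 libraries were apart from each other by more than the PD800 libraries were, yet the lower of them was above both at PD800. The mean fell 2.55-fold, from 38.7 ± 4.27 to 15.2 ± 0.338 CPM (SD, n = 2 each), a log2 fold change of -1.35 (SE 0.10, 95% interval -1.60 to -1.10, edgeR adjusted p = 0.000265). In TPM *Otx2* was at 18.6 and 13.77 at PD100, the highest of the 9 genes in both libraries, and at 5.79 and 5.1 at PD800, where *Zic5* was higher in replicate 2. *Otx2os1*, a non-coding gene that overlaps it on the opposite strand, had expected counts of 0 and 0 at PD100 and of 1 and 3 at PD800, at or under the floor, and *AC166574.6*, another gene that overlaps it, had at most 1. The nearest tested genes, *Tmem260* (log2 fold change 0.13) and the pseudogene *AC166574.2* (-0.15), did not pass.

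*Pou3f1* (ENSMUSG00000090125.3) encodes a POU-domain factor of the epiblast that also acts in neural fate and in Schwann cells. It is on the plus strand of chromosome 4, from 124656807 to 124660655, with 1 annotated transcript of 3849 bases. Expected counts were 1164 and 1082 at PD100 and 130 and 163 at PD800. In CPM it was at 28.8 and 32.4 at PD100 and at 3.62 and 5.07 at PD800, and in TPM at 6.08 and 6.17 against 0.63 and 0.84. Both PD800 libraries were far below both PD100 libraries on either scale. The mean fell 7.07-fold, from 30.6 ± 2.53 to 4.35 ± 1.03 CPM (SD, n = 2 each), a log2 fold change of -2.82 (SE 0.17, 95% interval -3.23 to -2.41, edgeR adjusted p = 0.000123). The nearest tested genes on either side, *Rragc* and *Utp11*, had log2 fold changes of -0.13 and -0.06 and did not pass, and the overlapping antisense gene *Gm2164* had no count in any library.

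*Grhl2* (ENSMUSG00000022286.16) encodes a Grainyhead-like factor that opens enhancers of epithelial genes, and it had the largest fold change of the 9 genes. It is on the plus strand of chromosome 15, from 37233036 to 37363569. Expected counts were 2109 and 1781 at PD100 and 177 and 136 at PD800. The CPM of 52.3 and 53.4 at PD100 became 4.92 and 4.23 at PD800, and the TPM of 10.82 and 9.84 became 0.99 and 0.75. The replicates were close to each other in both groups and the groups lay far apart. The mean fell 11.5-fold, from 52.8 ± 0.788 to 4.58 ± 0.489 CPM (SD, n = 2 each), a log2 fold change of -3.52 (SE 0.10, 95% interval -3.78 to -3.27, edgeR adjusted p = 3.11e-05). Between genes, *Grhl2* was next below *Otx2* in mean TPM at PD100 and at rank 6 of 9 at PD800. Of 3 annotated genes on the minus strand that overlap it, *Gm16136* had expected counts of 51 and 37 against 3 and 0, *Gm16138* of 39 and 31 against 1 and 3, and *Gm16137* of 7 and 8 against 1 and 1. Whether the counting used strand is not given in the sources used here, and without it reads from *Grhl2* and from these genes cannot be told apart. The nearest tested genes beside it, *Gm26766* (log2 fold change -1.23, edgeR adjusted p = 0.0177) and *Ncald* (-0.05, adjusted p = 0.942), did not pass.

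Of 12 epithelial genes known with *Grhl2*, all tested, 6 were called lower and none higher, with a list median of -1.42 in log2 fold change. *Prom2* (-3.37, edgeR adjusted p = 0.00153) and the tight junction gene *Cldn7* (-3.33, edgeR adjusted p = 8.60e-05) had the largest falls, and *Esrp1*, *Rab25*, *Cldn6* and *Epcam* fell by 2.54, 2.51, 2.10 and 1.85 on the log2 scale. *Cdh1*, the E-cadherin gene and the highest of the list in TPM, was at 73.69 and 67.07 TPM at PD100 and at 40.49 and 36.51 TPM at PD800. Its log2 fold change in counts was -0.63 (edgeR adjusted p = 0.00133), under 2-fold, as were those of *Cldn4* (-0.99) and *St14* (-0.69), which also passed. *Spint1* passed in the other direction (0.43, edgeR adjusted p = 0.00839). *Ovol2* (-0.93, edgeR adjusted p = 0.0255) and *Spint2* (0.10, adjusted p = 0.709) did not pass. Without PD100 replicate 1 or PD800 replicate 1, *Cldn4* was also called, at -1.07 and -1.01.

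**Figure D2:**
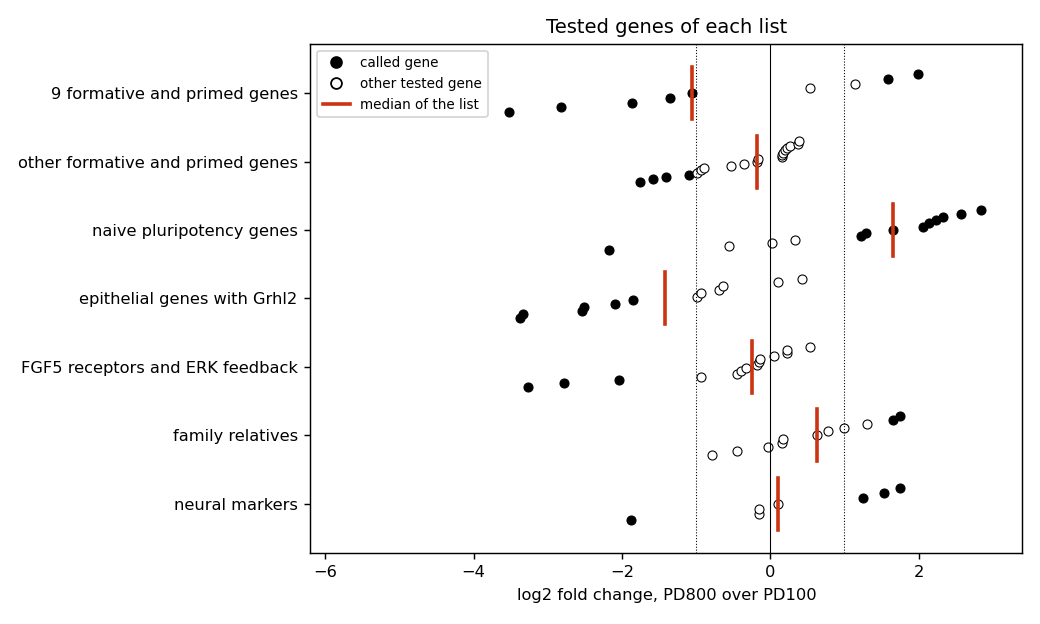
Log2 fold change, PD800 over PD100, of each tested gene (1 point each, in edgeR) in the 9 formative and primed genes and in 6 other lists, with filled points for called genes, a red line at each list's median and dotted lines at 2-fold. The medians were -1.06 for the 9 genes, -0.17 for other formative and primed genes, 1.66 for naive genes and -1.42 for the epithelial genes.

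*Sox11* (ENSMUSG00000063632.6) encodes a SoxC transcription factor of neural and other progenitors. It is a gene with 1 annotated transcript of 8311 bases on the minus strand of chromosome 12, from 27334264 to 27342574. Expected counts were 1128 and 930 at PD100 and 477 and 433 at PD800. In CPM these were 27.9 and 27.9 against 13.3 and 13.5, so that replicates were nearly equal in both groups. The mean fell 2.09-fold, from 27.9 ± 0.0568 to 13.4 ± 0.145 CPM (SD, n = 2 each), a log2 fold change of -1.06 (SE 0.08, 95% interval -1.26 to -0.87, edgeR adjusted p = 0.000258). The interval reached below 2-fold, and *Sox11* had the smallest fold change of the 7 called genes. Levels in TPM were 2.66 and 2.4 at PD100 and 1.05 and 1.01 at PD800. The nearest tested genes were *Gm46344* (log2 fold change 0.34) and *Rps7* (-0.01), and neither passed.

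The window before the start of *Sox11* is shown for comparison with that of *Fgf5*, since both genes fell. It lies at chr12:27342719-27342968 on the minus strand of GRCm38.p6, had a GC content of 58.0% and 17 CpG dinucleotides, and held no match to a searched motif, so it carries no capitals.
Sox11: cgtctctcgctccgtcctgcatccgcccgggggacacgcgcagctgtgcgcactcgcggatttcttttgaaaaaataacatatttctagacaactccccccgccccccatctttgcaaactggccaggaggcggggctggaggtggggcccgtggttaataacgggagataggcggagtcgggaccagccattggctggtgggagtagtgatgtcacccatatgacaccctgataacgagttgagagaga

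*Zic2* (ENSMUSG00000061524.8) and *Zic5* (ENSMUSG00000041703.7) encode zinc finger transcription factors and stand head to head on chromosome 14, with 9758 bases between them. Zic2 binds enhancers of pluripotent cells, and both factors act in the neural plate and neural crest. *Zic2* is on the plus strand, from 122475435 to 122479852, and *Zic5* on the minus strand, from 122456795 to 122465677. They were the 2 members called higher in PD800 cells.

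*Zic2* had expected counts of 122 and 88 at PD100 and of 430 and 340 at PD800, which are 3.02 and 2.64 CPM against 12.0 and 10.6 CPM. Each PD800 library was thus well above each PD100 library. The mean rose 3.97-fold, from 2.83 ± 0.273 to 11.3 ± 0.977 CPM (SD, n = 2 each), a log2 fold change of 1.99 (SE 0.14, 95% interval 1.65 to 2.33, edgeR adjusted p = 0.000202). In TPM it was at 1.17 and 0.92 at PD100 and at 3.61 and 2.99 at PD800.

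*Zic5* had expected counts of 357 and 226.7 at PD100 and of 822.93 and 780.84 at PD800, values that are not whole in 3 libraries because RSEM divided reads that align to several places. In CPM it was at 8.84 and 6.80 at PD100 and at 22.9 and 24.3 at PD800. The mean rose 3.01-fold, from 7.82 ± 1.44 to 23.6 ± 0.997 CPM (SD, n = 2 each), a log2 fold change of 1.59 (SE 0.14, 95% interval 1.25 to 1.93, edgeR adjusted p = 0.000420). The groups did not overlap in TPM either, at 2.44 and 2.24 against 5.36 and 5.37, where the log2 ratio was 1.20. The mean length assigned to *Zic5* was 2285.61 bases in PD100 replicate 2 and between 2913.3 and 2982.9 bases in the other 3 libraries.

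The genes on the outer sides of the pair also passed the adjusted p in the higher direction at under 2-fold. *Clybl*, next to *Zic5*, had a log2 fold change of 0.67 (edgeR adjusted p = 0.00377), and *Pcca*, next to *Zic2*, one of 0.67 (edgeR adjusted p = 0.00232). The 40 tested genes nearest to *Zic2* had a median log2 fold change of 0.27, and 4 of them, *Zic5* included, were called higher and 1 lower. The study reports copy-number changes near the long-arm ends of chromosomes in PD800 cells, compared with PD100. The part of gene copy number in these rises was not tested. *2610035F20Rik*, a non-coding gene that starts 236 bases from *Zic2* on the other strand, had expected counts of 1 and 6 at PD100 and of 12 and 9 at PD800, too few for a test.

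The window before the RefSeq start of *Zic5*, the member of the pair with a window in the table, is shown as that of a gene that rose. It lies at chr14:122465659-122465908 on the minus strand of GRCm38.p6, had a GC content of 62.4% and 11 CpG dinucleotides, and held no match to a searched motif.
Zic5: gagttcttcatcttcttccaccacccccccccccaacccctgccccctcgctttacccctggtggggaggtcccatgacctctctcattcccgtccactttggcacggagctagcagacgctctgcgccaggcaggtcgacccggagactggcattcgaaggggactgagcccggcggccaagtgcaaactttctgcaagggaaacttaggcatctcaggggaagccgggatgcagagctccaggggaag

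The motifs searched on both strands were TAATCC for Otx, ATGCAAAT for POU factors, AACCNGTT for Grhl, ACAAAG for Sox, CAGCAGG for Zic, GTAAACA for Fox and the TATA box TATAAA, and none of the matches overlapped. Of the 9 genes, 5 had windows in the table, 8 in all: *Otx2* had 4 and *Fgf5*, *Zic5*, *Foxd3* and *Sox11* had 1 each, while *Pou3f1*, *Zic2*, *Sox3* and *Grhl2* had none. The 8 windows held 1 match to the Otx motif and 1 to the TATA box, in different windows of *Otx2*, and the 1 Sox match of *Fgf5*. Among all 32851 windows, 6.25% held the Otx motif, 16.5% the Sox motif and 12.4% the TATA box, and 1.6%, 1.79%, 8.44% and 3.17% held those for POU, Grhl, Zic and Fox factors. A match describes letters and is not a binding site.

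*Sox3* (ENSMUSG00000045179.9) encodes a SoxB1 factor close to Sox2, and it is a gene of 1 exon on the minus strand of the X chromosome, from 60891366 to 60893430. Expected counts were 21 and 31 at PD100 and 44 and 63 at PD800. In CPM it was at 0.520 and 0.929 at PD100 and at 1.22 and 1.96 at PD800. Both PD800 libraries were above both PD100 libraries, but the replicates of each group were far apart for counts this low. The means were 0.725 ± 0.289 and 1.59 ± 0.521 CPM (SD, n = 2 each), and the log2 fold change was 1.15 (SE 0.38, 95% interval 0.21 to 2.08). It did not pass the test (edgeR adjusted p = 0.0519), but was called when replicate number was added to the model and with no expression filter. Without PD100 replicate 2, the log2 fold change was 1.58 and the edgeR adjusted p 0.00627, which would be a call. Levels in TPM were 0.21 and 0.34 against 0.41 and 0.63, the lowest of the 9 genes at PD100. *Ldoc1*, the nearest tested gene on one side, was called lower (log2 fold change -1.74, edgeR adjusted p = 0.00483).

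*Foxd3* (ENSMUSG00000067261.4) encodes a forkhead factor that pluripotent cells need and that later specifies neural crest, and it is on the plus strand of chromosome 4, from 99656299 to 99658622. Expected counts were 486 and 376 at PD100 and 574 and 573 at PD800, or 12.0 and 11.3 CPM against 16.0 and 17.8 CPM. The mean rose 1.45-fold, from 11.7 ± 0.548 to 16.9 ± 1.32 CPM (SD, n = 2 each), a log2 fold change of 0.53 (SE 0.10, 95% interval 0.29 to 0.78, edgeR adjusted p = 0.00702). The interval lay wholly under 2-fold. It did not pass when PD800 replicate 1 was left out (0.61, edgeR adjusted p = 0.0266) or PD800 replicate 2 (0.45, edgeR adjusted p = 0.0713), nor with limma on log2(TPM + 1) (0.24, adjusted p = 0.135) or log2(TPM + 0.1) (0.29, adjusted p = 0.191). The gap between the groups was narrower in TPM, at 4.34 and 3.65 against 4.75 and 5.02. The non-coding gene *Gm12688*, 1316 bases away, had expected counts of 33 and 37 at PD100 and of 57 and 66 at PD800, a log2 fold change of 0.92 that did not pass (edgeR adjusted p = 0.0338). *Alg6* on the other side did not pass either (0.16), and the overlapping microRNA gene *Gm23366* had no count.

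**Figure D3:**
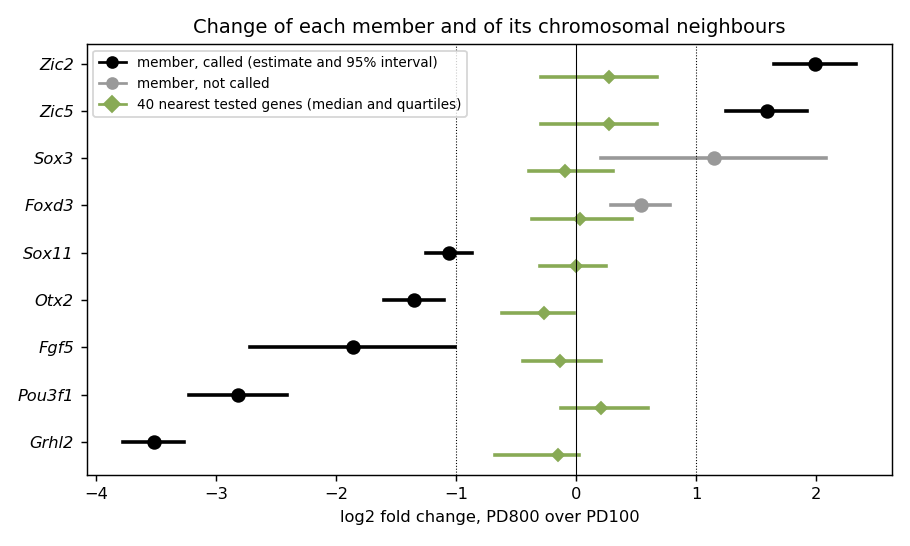
Log2 fold change of each of the 9 genes, PD800 over PD100, with its 95% interval from edgeR (black for called genes, grey for the others), and below each in green the median and quartiles of its 40 nearest tested genes. The members span -3.52 to 1.99, while the medians of their neighbours lie between -0.27 and 0.27.

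The neighbours on the chromosome give a local background for each gene. The median log2 fold change of the 40 nearest tested genes was -0.27 for *Otx2*, -0.15 for *Grhl2*, -0.13 for *Fgf5*, -0.00234 for *Sox11* and 0.21 for *Pou3f1*. Among itself and its 40 neighbours, *Pou3f1* had the lowest fold change, *Grhl2* and *Otx2* ranked 39 of 41 from the highest, *Fgf5* 38 and *Sox11* 36. *Sox3* ranked 3, *Zic2* 4, *Zic5* 7 and *Foxd3* 10 of 41 from the highest. The neighbours of *Grhl2* included *Gm16136* (-4.65) and *Gm16138* (-3.93), which overlap it and were called lower. Without strand, their reads cannot be told apart from those of *Grhl2*. *Antxr2*, the nearest tested gene on one side of *Fgf5* at a distance of 223141 bases, was also called lower (log2 fold change -1.66, edgeR adjusted p = 0.00450), while *Prkg2* on the other side did not pass (0.71, adjusted p = 0.0700).

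The order of the levels changed between the groups. In mean TPM the order at PD100 was *Otx2* (16.2), *Grhl2* (10.3), *Pou3f1* (6.13), *Foxd3* (3.995), *Sox11* (2.53), *Zic5* (2.34), *Zic2* (1.05), *Fgf5* (0.525) and *Sox3* (0.275). Only *Sox11* and *Zic5* overlapped between libraries among these neighbours in the order. At PD800 it was *Otx2* (5.45), *Zic5* (5.37), *Foxd3* (4.89), *Zic2* (3.30), *Sox11* (1.03), *Grhl2* (0.870), *Pou3f1* (0.735), *Sox3* (0.520) and *Fgf5* (0.085). There *Otx2* overlapped with *Zic5*, *Grhl2* with *Pou3f1*, and *Pou3f1* with *Sox3*. With 2 libraries in a group, an overlap or a gap is a description.

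The closest relatives of the 9 genes were read beside them. Of 19 paralogues, 11 had enough counts for a test, of which 2 were called higher and none lower. With limma on either TPM scale, and with the fold over 2 tested in the model, *Fgf4* alone of the 2 was called higher. *Fgf4*, the FGF ligand of the naive state, rose with a log2 fold change of 1.66 (edgeR adjusted p = 6.95e-05) and was at 20.41 and 19.67 TPM at PD100 and 54.37 and 52.74 TPM at PD800, while its relative *Fgf5* fell. *Sox1*, a SoxB1 gene like *Sox3*, rose from expected counts of 44 and 30 to 131 and 98 (log2 fold change 1.74, edgeR adjusted p = 0.00162). Of the other Grainyhead-like genes, *Grhl1* passed in the lower direction (-0.78, edgeR adjusted p = 0.00308) and *Grhl3* in the higher (0.99, edgeR adjusted p = 0.000302). *Grhl3* was also called without PD100 replicate 1 (1.01) and without PD800 replicate 2 (1.02).

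None of the other paralogues passed. *Pou3f3*, at 10 and 15 counts against 28 and 30, had a log2 fold change of 1.31 (edgeR adjusted p = 0.0312), and without PD100 replicate 2 it was called at 1.75. *Pou3f4* had 0.78 and *Zic1*, at 10 and 15 counts against 7 and 10, had -0.44. *Sox2* had 0.63 (edgeR adjusted p = 0.0102), *Sox4* 0.16 and *Sox12* -0.03. *Otx1*, *Pou3f2*, *Foxd1* and *Foxd2* were detected with at most 9 counts in any library and were not tested. *Fgf6*, *Zic4* and *Foxd4* were at or under the floor in every library, and *Crx* had no count, which allows up to 0.0934 CPM.

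Of 20 other genes known from the formative and primed states, 19 were tested, of which 4 were called lower and none higher, and the list's median was -0.17. *Dnmt3b*, a DNA methyltransferase gene, was at 53.92 and 53.32 TPM at PD100 and at 14.23 and 13.96 TPM at PD800, a log2 fold change in counts of -1.76 (edgeR adjusted p = 6.55e-05). *Pim2* (-1.58), *Lin28b* (-1.40) and *Fgf15* (-1.10, edgeR adjusted p = 0.00321) were the other 3 called. The call of *Fgf15* was lost without PD800 replicate 1 (edgeR adjusted p = 0.0292) and without PD800 replicate 2 (adjusted p = 0.0163). *Dnmt3l*, the highest of the list, was at 71.33 and 72.91 TPM against 69.73 and 70.73 TPM, with a log2 fold change in counts of 0.19 that did not pass. *Nodal* (-0.90) and *Etv4* (-0.93), which is also in the list of FGF receptors and ERK feedback, passed in the lower direction and *Utf1* (0.37) in the higher, all under 2-fold. As given there, *Etv4* was called without PD100 replicate 2. *Lef1* (-0.99, edgeR adjusted p = 0.0141) did not pass, but was called at -1.14 without PD100 replicate 2. *Fgf8*, with 8 and 1 counts at PD100 and 1 and 0 at PD800, was not tested.

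Of 13 genes of the naive state, 9 were called higher and 1 lower, with a list median of 1.66. *Klf4* rose the most (2.84, edgeR adjusted p = 5.22e-05), followed by *Prdm14* (2.57, edgeR adjusted p = 4.46e-05), and *Dppa3* fell (-2.17, edgeR adjusted p = 0.000260). *Klf2* passed in the lower direction at under 2-fold (-0.56, edgeR adjusted p = 0.00190). *Zfp42*, the highest of the list in TPM, had 0.33 and did not pass. The summed TPM of the naive genes was 374.5 and 352.6 at PD100 and 689.8 and 644.1 at PD800, over the same libraries in which that of the 9 formative and primed genes was lower at PD800.

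The labelled cell type was checked with 8 markers of embryonic stem cells, all of which were well detected, the lowest expected count being 1677 for *Utf1* in PD100 replicate 2. *Pou5f1* was at 305.5 and 295.73 TPM at PD100 and at 325.42 and 324.58 TPM at PD800 (log2 fold change in counts 0.35, edgeR adjusted p = 0.0194). *Nanog* was called higher (2.32, edgeR adjusted p = 4.88e-05) and *Utf1* passed at under 2-fold, as given above, while *Sox2*, *Zfp42*, *Lin28a* (-0.35, edgeR adjusted p = 0.0143) and *Sall4* (-0.02) did not pass. *Dppa5a* was at 681.75 and 1068.24 TPM against 1051.35 and 1156.01 TPM (log2 fold change in counts 0.54, edgeR adjusted p = 0.150), and without PD100 replicate 2 it was called at 1.01.

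Several of the 9 genes are also expressed in other cell types, whose markers were read in the same libraries, and their part in the results was not tested. Of 12 neural markers 7 were tested, of which 3 were called higher, *Sox1*, *Pax6* (1.53) and *Tubb3* (1.25), and 1 lower, *Nes* (-1.88). Without PD800 replicate 2 *Pax6* was not called (edgeR adjusted p = 0.0137). With limma, 0 neural markers were called higher on log2(TPM + 1) and 1 on log2(TPM + 0.1), and 0 with the fold over 2 tested in the model. The summed TPM of the neural markers was 31.5 to 34.8 at PD100 and 40.4 to 42.7 at PD800. Within it *Tubb3* was at 17.84 and 14.81 TPM at PD100 and at 33.36 and 32.48 TPM at PD800. *Nes* went the other way, from 9.75 and 11.89 TPM to 2.49 and 2.6 TPM, and the list's median log2 fold change was 0.10. *Dcx* had no count in any library and *Neurog2* was at or under the floor. Of 8 primitive streak markers 5 were tested and 2 called higher, *Gsc* (3.57, from 1 and 6 counts to 39 and 41) and *Eomes* (1.98), with a summed TPM of 1.57 to 2.12 at PD100 and 2.65 to 3.12 at PD800. Neither was called with limma on log2(TPM + 1) or log2(TPM + 0.1), and 1 of them was called with the fold over 2 tested in the model or with at least 10 counts required in every library. The other 3 streak markers tested did not pass and had log2 fold changes below 0, *T*, *Mixl1* (-0.87) and *Wnt3* (-0.33), so that the list's median was -0.33. Of 6 neural crest markers, which bear on *Foxd3*, 3 were tested and none was called, with a summed TPM of 0.49 to 0.85 at PD100 and 0.31 to 0.42 at PD800. The 3 did not share a direction: *Ednrb* had 1.78 (edgeR adjusted p = 0.0132), *Snai2* -0.92 (adjusted p = 0.0804) and *Sox10* -1.40 (adjusted p = 0.0441), and *Sox10* was called at -1.84 without PD100 replicate 2. With no expression filter, and likewise with the replicate block, 1 marker of this list was called higher and 1 lower.

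Lists for 3 further cell types held markers that were called lower in PD800 cells, as were *Grhl2*, *Pou3f1* and *Otx2*. All 8 primitive endoderm markers were called lower, at a median of -4.04 in log2 fold change, and none was at 0 in any library. Their summed TPM was 191.1 and 211.0 at PD100 and 8.2 and 8.83 at PD800. *Col4a1*, the highest of them, was at 149.62 and 177.82 TPM against 5.94 and 6.68 TPM, and *Foxa2*, at 1 count in each PD800 library, was at least 57.1-fold lower, taken against the floor. *Sox17* fell by 6.03 on the log2 scale, and the called markers with the smallest falls were *Gata4* (-2.88) and *Sox7* (-2.94). Of 6 trophoblast markers 4 were tested and 3 called lower, *Krt7* (-3.75), *Hand1* (-2.92) and *Cdx2* (-1.44), with a summed TPM of 7.38 to 7.44 at PD100 and of 0.72 to 1.00 at PD800. The call of *Cdx2* was lost when any of PD100 replicate 1, PD800 replicate 1 and PD800 replicate 2 was left out (edgeR adjusted p of 0.0136, 0.0564 and 0.0312). Of 10 fibroblast markers 8 were tested and 4 called lower, *Col1a1* (-3.07), *Col3a1* (-2.52), *Col1a2* (-2.33) and *Thy1* (-1.75), with a summed TPM of 13.4 at PD100 and of 4.07 to 4.11 at PD800. *Postn* (-0.80, edgeR adjusted p = 0.0180), *Pdgfrb* (-0.08, adjusted p = 0.679) and *Twist1*, which was higher at PD800 (0.34, adjusted p = 0.200), did not pass. With limma, 1 fibroblast marker was called lower on log2(TPM + 1) and 2 on log2(TPM + 0.1). *Lum* was at or under the floor in all libraries, and *Dcn*, at 23 and 13 counts against 6 and 0, was not called (-2.42, edgeR adjusted p = 0.0551). It was called without PD800 replicate 1, where the remaining PD800 library had no count, and with no expression filter. The part of these cell types in the falls of the 9 genes was not tested.

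**Figure D4:**
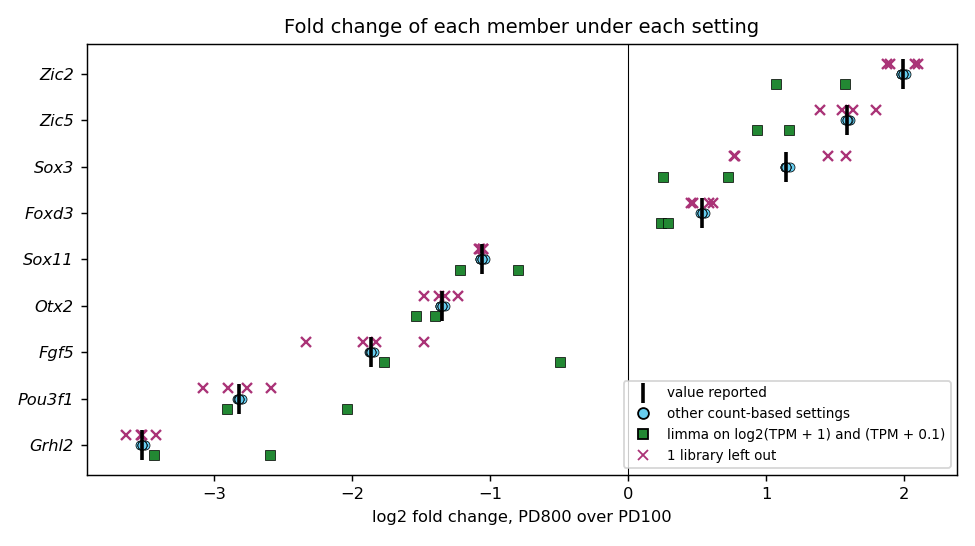
Log2 fold change of each of the 9 genes, PD800 over PD100, as reported (black bar), with other settings of the count-based test (blue circles), on TPM with limma (green squares) and with 1 library left out (crosses). No gene changes sign under any setting, and the widest spread among crosses is that of *Fgf5*, from -2.34 to -1.48.

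On the TPM scale the 9 genes kept the direction they had in counts, although that scale was itself shifted. Among all tested genes the median log2 difference was -0.12 for log2(TPM + 1) and -0.21 for log2(TPM + 0.1), against 0.01 in counts, and higher genes made up 23.9% and 22.0% of the calls in place of 41.6%. The log2 ratio of mean TPM adds no pseudocount, so those medians are not its own shift. It was -3.57 for *Grhl2*, -3.06 for *Pou3f1*, -1.57 for *Otx2*, -1.30 for *Sox11*, 0.29 for *Foxd3*, 0.92 for *Sox3* and 1.66 for *Zic2*.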

How the data were processed

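Bulk RNA libraries of DKO741 cells, 2 from PD100 and 2 from PD800, were grouped by the doublings that their titles give. The authors used STAR 2.5.3a to align paired reads to mm10 and RSEM 1.3.0 to count them, and their own test used DESeq2 1.18.1. The deposited expected counts are not scaled for depth, and RSEM divides a read that aligns to several genes between them. The deposited TPM values correct for gene length and share 1 total between libraries, so TPM was used for levels between genes and for an alternative test. Deposited FPKM values were not used. The annotation release of the files is not given in the sources used here. Of 53379 gene identifiers, 53274 were found in GENCODE M21 (GRCm38), 50604 of them in the same version, and this gave positions and transcripts. Promoter windows came from RefSeq (GRCm38.p6).

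After rounding to whole numbers, expected counts were filtered by filterByExpr (minimum count 10) and normalised by TMM. The test was the quasi-likelihood test of edgeR 4.0.16 in R 4.3.3, and p-values were adjusted by Benjamini-Hochberg over all 19148 tested genes. A gene passed at an adjusted p under 0.01 and was called if its fold change was also over 2. CPM used totals scaled by the TMM factors. An exact permutation test (two-sided) of 2 against 2 libraries cannot give a p below 0.333, so p-values rest on spread pooled across genes (common dispersion 0.0136). Replicates varied more than counting error, with a chi-square per degree of freedom of 66.3 at PD100 and 10.2 at PD800, so no library was taken for a copy of another. Correlations of log2(CPM + 1) across genes were 0.992 and 0.997 between replicates and 0.955 to 0.961 between groups. On simulated data for this comparison with 19148 genes, 92% of 200 changed genes were called and 0 unchanged genes passed the adjusted p. The simulated fold changes were all over 2, and every gene was given the same common dispersion. These shares therefore do not measure how often smaller changes are missed or unchanged genes pass in the real data.

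The 9 genes and all lists were chosen with earlier results of these data known. All 9 were named. Of each other list, the 2 highest and the 2 lowest fold changes among called genes and the gene with the highest TPM were named, with all detected family relatives, all embryonic stem cell markers, the nearest tested genes and the genes that overlap a member. Some genes that this rule would name are not reported here. Any further gene was named with its values known. As 15 alternatives, the fit was repeated with DESeq2 1.42.0, its size factors, upper-quartile normalisation, TMM from protein-coding genes, no filter, a minimum of 10 counts in all 4 libraries, the replicate block, limma 3.58.1 on log2(TPM + 1) and log2(TPM + 0.1), an adjusted p under 0.05, a fold over 2 tested in the model, and each library left out. The authors' own differential expression results were not used.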

Additional observations from a re-analysis of the deposited data

How the results depend on the processing

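Over the 15 alternatives, 122 of 134 results for the 9 genes kept their direction and stayed called or not called, and none reversed. *Pou3f1*, *Zic2*, *Grhl2* and the uncalled *Foxd3* did so under all 15, although *Foxd3* lost its adjusted p under 0.01 where either PD800 library was left out, on both TPM scales and with the fold tested in the model. In the other cases the cause was not tested, unless given here. On log2(TPM + 1), where low genes are compressed by the pseudocount, limma gave *Fgf5* -0.49 (adjusted p = 0.0112), *Zic5* 0.93 and *Sox11* -0.80, none of them called, so that 1 member was called higher and 3 lower, and 274 genes were called higher and 872 lower in place of 1202 and 1686. On log2(TPM + 0.1), 454 genes were called higher. With the fold over 2 tested in the model, a stricter rule by construction, 386 genes were called higher and 685 lower, among them 1 and 2 members, and adjusted p from edgeR was 0.0826 for *Fgf5* (-1.86), 0.0214 for *Otx2* (-1.35), 0.0106 for *Zic5* (1.59) and 0.543 for *Sox11* (-1.06). DESeq2 gave *Fgf5* -1.88. *Sox3* was called at 1.14 with no expression filter, where 32384 genes were tested. Same-numbered libraries share a number in the labels, and whether they were paired in any other way is not given. Across tested genes, the correlation of their deviations from the group means was 0.388, with 2 pairs. The main test did not use the number, and a shared batch was not tested. The replicate block gave 1461 genes called higher and 1956 lower, *Sox3* at 1.14 (edgeR adjusted p = 0.00383), and changed the call of no other member. With each library left out in turn, *Fgf5* ranged from -2.34 to -1.48 and *Sox3* from 0.77 to 1.58, and the calls over all genes from 880 to 1514 higher and from 1274 to 1893 lower. *Fgf5* was outside the genes with at least 10 counts in every library. *Fgf5* and *Sox3* had the lowest counts of the 9 genes, 8 to 63 in a library, and the part of depth in their results was not tested.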
